A study of Homo sapiens with 15 samples.

Results

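The set described here comprises 45 interferon-stimulated genes, picked by symbol out of 57820 gene identifiers in the deposited tables. All 45 symbols were found, each under 1 identifier. A gene listed at 0 in every library of a cell line was left out for that line, which left 39 members for MOLM-13, 36 for U937 and 35 for HL-60. Of the 45 members, 33 could be tested in all 3 lines, 5 in 2 lines and 1 in 1 line. The 6 members OASL, ISG20, IFITM1, IFI27, IFI44L and EPSTI1 were listed at 0 in all 15 libraries.

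The libraries came from MOLM-13, U937 and HL-60, established human acute myeloid leukaemia (AML) cell lines, and each line was compared with itself after knockdown of RNF5, a membrane-anchored ubiquitin ligase. Every culture carried a lentiviral pLKO vector, either empty (pLKO) or encoding a short hairpin RNA against RNF5 (shRNF5), so transduction was common to both groups. The empty vector encodes no hairpin, so loss of RNF5 and expression of a hairpin RNA cannot be told apart. There were 3 pLKO libraries and 2 shRNF5 libraries of MOLM-13, 2 libraries per construct of U937 and 3 per construct of HL-60. The harvest is given as 7 days after knockdown in the sample descriptions and as 5 days in the series design, the hairpin sequenced is not named, and the kit is given as a 3′ end kit in the sample descriptions and as a directional poly(A) kit in the methods. The sample descriptions do not say whether the libraries of a group came from separate cultures, and the study states only in general that its experiments were done more than once, so p-values measure only the spread between these libraries. Because RNA came from bulk cultures, fewer cells of a kind and less RNA per cell cannot be told apart.

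Type I interferons bind a receptor pair at the cell surface, and the kinases attached to it phosphorylate STAT proteins. STAT2 then joins a STAT partner and IRF9 in the complex ISGF3, which enters the nucleus and binds a DNA element built from repeats of GAAA, the interferon-stimulated response element. The genes switched on in this way include sensors of viral RNA, enzymes that degrade or edit RNA, the ubiquitin-like modifier ISG15 with its ligases, and membrane proteins that block virus entry or release. Many of them also have a basal level in blood cells without added interferon.

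The promoters of the set were searched for this repeat in RefSeq sequence (GRCh38.p14 table, 250 bases before to 50 bases after each transcription start). The motif was GAAANNGAAA, searched on both strands (TTTCNNTTTC on the other), and overlapping matches were counted separately. A promoter was found for 37 of the 45 members, and 25 of these 37 (67.6%) held at least 1 match, against 1195 of all 27305 genes with a promoter (4.38%). Among members called changed in any line, as defined below, 10 of the 13 with a promoter held a match, and among the others 15 of 24 did. STAT2, HERC6 and IFI35 were the called members without a match in this window. A match is only a description of the letters present. The windows below show 1 match from each of 8 of these 10 called members. The matches of HERC5 had no exact placement on GRCh37 and, like those of DDX60, are not shown. Each window shown runs 5′ to 3′ along the gene's own strand, with the match in capitals, and was placed on GRCh37 by exact sequence identity.
IFIT1 (chr10:91152254-91152283, forward): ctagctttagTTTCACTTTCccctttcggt
IFIT3 (chr10:91087622-91087651, forward): tttaaattagTTTCACTTTCcagtttcctc
OAS3 (chr12:113376126-113376155, forward): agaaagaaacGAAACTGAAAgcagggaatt
DTX3L (chr3:122283169-122283198, forward): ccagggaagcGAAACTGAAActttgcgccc
IFI6 (chr1:27998799-27998828, reverse): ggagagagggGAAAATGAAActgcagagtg
SAMD9 (chr7:92747409-92747438, reverse): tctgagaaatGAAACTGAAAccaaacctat
PLSCR1 (chr3:146262454-146262483, reverse): cgggaaccggGAAAAGGAAAccgtgttgtg
LGALS3BP (chr17:76976044-76976073, reverse): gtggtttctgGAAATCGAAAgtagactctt

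The values are normalized read counts per gene, and their rounding was inferred from the values. Their totals are alike within a line and not between lines, so levels are not compared between lines or between genes. Fold changes are differences of log2(value + 1), shRNF5 over pLKO, and are too small for genes whose values are low. Calls needed a limma Benjamini-Hochberg adjusted p below 0.1 together with a log2 fold change beyond 0.4 in size, with the adjustment over all genes tested in the line. RNF5 itself was strongly reduced, the log2 fold change being -3.77 (MOLM-13), -3.64 (U937) and -3.25 (HL-60, limma adjusted p = 0.000336, 0.00287 and 0.00125), and its values in shRNF5 libraries lay below those in pLKO libraries in each line. Estimated depth ran from 9700000 to 63800000 reads per library, and the 2 MOLM-13 shRNF5 libraries were the deepest, at 63800000 and 24400000 reads. All 10 myeloid markers examined were above 0 in MOLM-13 and U937 and 9 of 10 in HL-60, where CSF1R was listed at 0. Their summed level moved with the construct in U937, from 26748 to 32213 with pLKO and from 18325 to 22590 with shRNF5, and in HL-60, from 114838 to 141657 with pLKO and from 157010 to 232992 with shRNF5. In MOLM-13 it overlapped, at 45958 to 71852 and 46337 to 71428. The part of these markers in the results below was not tested. The defining markers CD3D, CD3E and MS4A1 were listed at 0 in all 3 lines.

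In HL-60, 9 members rose and 1 fell, and in U937, 4 rose and 5 fell. The 10 calls in HL-60 were 28.6% of the 35 members tested, beside 25.9% of all genes (13.6% higher and 12.3% lower). The 9 calls in U937 were 25.0% of the 36 tested, beside 15.7% of all genes (6.92% higher and 8.74% lower). In MOLM-13 limma called 0 of 39 members, where 2.04% of all genes were called (1.03% higher and 1.01% lower). At an unadjusted p under 0.05, 4 MOLM-13 members passed (BST2, MX1, MX2 and IFI44), and the lowest adjusted p was 0.162. Altogether 16 members were called in at least 1 line, 13 of them in 1 line, and 23 were tested but never called. The matching shares over all genes were not computed.

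The median log2 fold change of the members was 0.25 in HL-60, 0.10 in MOLM-13 and -0.05 in U937, where the medians over all genes were 0.002, 0.007 and 0.004. Positive values were held by 20 of 35 members in HL-60, 23 of 39 in MOLM-13 and 17 of 36 in U937. The fold changes ran from -1.19 to 1.15 in MOLM-13, from -1.98 to 1.73 in U937 and from -0.88 to 2.67 in HL-60. The pLKO and shRNF5 values did not overlap for 27 of 36 members in U937 (75.0%, beside 59.2% of all genes), 12 of 35 in HL-60 (34.3%, beside 38.5%) and 12 of 39 in MOLM-13 (30.8%, beside 38.7%). With 2 libraries against 2, separation in U937 is a weak criterion. Every U937 call was lost when pLKO replicate 2, shRNF5 replicate 1 or shRNF5 replicate 3 was left out (0 members each time), whereas leaving out pLKO replicate 3 left 9 calls (TRIM22 lost and IRF7 gained), and the U937 median was 0.24 without pLKO replicate 2 and -0.15 without pLKO replicate 3. The HL-60 median ranged from 0.14 (without shRNF5 replicate 2) to 0.27 (without pLKO replicate 3), and the MOLM-13 median from 0.03 (without pLKO replicate 1) to 0.16 (without shRNF5 replicate 1). In MOLM-13 leaving out pLKO replicate 1 gave 2 calls, BST2 and MX2, both lower. In HL-60 leaving out a library gave 7 to 11 calls. Shares of all genes called without a library are not given here, so these counts describe only how stable the calls were.

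**Figure D1:**
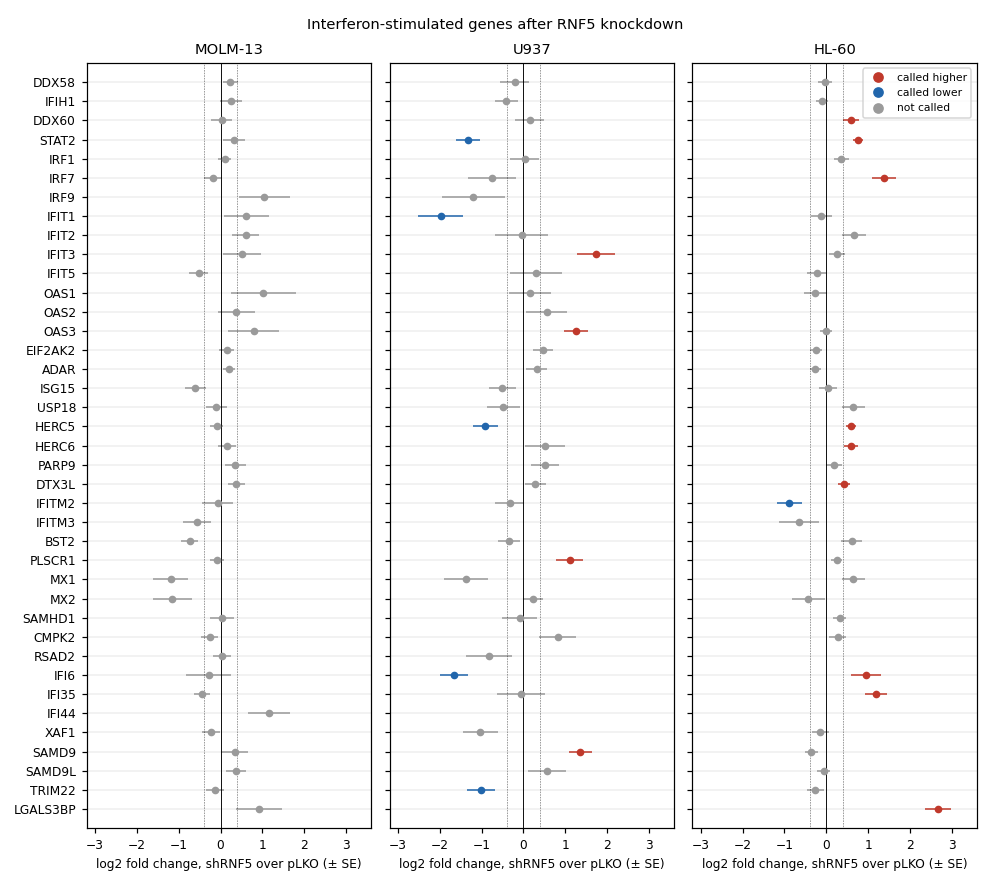
Log2 fold change (shRNF5 over pLKO, x axis, with standard error bars) of the 39 members tested in at least 1 line (y axis, grouped by role), with 1 panel per line. Red points were called higher, blue points lower and grey points were not called, and dotted lines mark 0.4 in each direction. Coloured points number 0 for MOLM-13, 9 for U937 and 10 for HL-60, where LGALS3BP lies farthest to the right at 2.67.

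Among the transcription factors, STAT2 moved in opposite directions in the 2 lines where it was called. STAT2 (chr12:56735381-56753987, reverse strand, GRCh37) is the subunit of ISGF3 that carries its main activation domain. In U937 its normalized read count was 2943 and 1810 in the pLKO libraries and 839 and 1019 in the shRNF5 libraries, so both knockdown values lay below both controls. The log2 fold change was -1.32 ± 0.29 (SE, limma adjusted p = 0.0305). In HL-60 STAT2 stood at 546, 559 and 520 with pLKO and at 917, 860 and 1007 with shRNF5, again without overlap but in the other direction, a log2 fold change of 0.77 ± 0.12 (adjusted p = 0.00356, limma). The MOLM-13 values overlapped, at 1845, 1129 and 2093 against 1800 and 2309.

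IRF7 (chr11:612553-615983, reverse strand), the factor that amplifies type I interferon transcription, rose in HL-60. Its values there were 71, 105 and 111 with pLKO and 179, 211 and 394 with shRNF5. The groups did not overlap and the highest knockdown value came from shRNF5 replicate 3, with a log2 fold change of 1.38 ± 0.29 (limma adjusted p = 0.0104). In U937 the pLKO libraries themselves were far apart for IRF7, at 312 and 82, and the shRNF5 values of 108 and 83 lay between them. IRF1, a factor induced mainly by interferon gamma, was called in no line, with log2 fold changes of 0.10, 0.03 and 0.36 in MOLM-13, U937 and HL-60. IRF9, the DNA-binding partner of STAT2, had low values wherever it was detected. It read 32, 8 and 31 with pLKO and 39 and 47 with shRNF5 in MOLM-13, and 41 and 26 against 7 and 26 in U937. IRF9 was listed at 0 in HL-60, the line in which STAT2 and IRF7 rose, so the ISGF3 partner cannot be followed there.

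Of the 3 sensors of viral RNA, 1 was called. DDX58, which encodes RIG-I, and IFIH1, which encodes MDA5, both detect viral double-stranded RNA in the cytosol, and neither was called in any line. In MOLM-13, U937 and HL-60, the log2 fold changes of DDX58 were 0.23, -0.21 and -0.03, and those of IFIH1 were 0.25, -0.41 and -0.10. DDX60, a helicase reported to act with RIG-I, was called in HL-60. It read 147, 145 and 167 there with pLKO and 234, 289 and 185 with shRNF5. The groups were separate by a small margin, 185 against 167, and the log2 fold change was 0.60 ± 0.19 (limma adjusted p = 0.0521). The call was lost without any of the 3 pLKO libraries or shRNF5 replicate 2 (limma adjusted p from 0.104 to 0.138).

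Within the IFIT family, IFIT1 fell and IFIT3 rose in the same U937 libraries. IFIT1 binds RNA that lacks the host's cap methylation and acts in a shared complex with IFIT3. Their genes lie close together on chromosome 10 (IFIT3 chr10:91087064-91137230 and IFIT1 chr10:91152303-91166244, both forward). IFIT1 read 103 and 67 in the U937 pLKO libraries and 18 and 23 in the shRNF5 libraries, without overlap. Its log2 fold change of -1.98 ± 0.53 was the lowest of the set in U937 (limma adjusted p = 0.0528). IFIT3 read 49 and 33 with pLKO and 135 and 137 with shRNF5, a log2 fold change of 1.73 ± 0.45 (limma adjusted p = 0.0477), the highest of the set in U937.

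No IFIT gene was called in HL-60 or MOLM-13. IFIT2 read 61, 49 and 42 with pLKO and 84, 108 and 56 with shRNF5 in HL-60, overlapping at shRNF5 replicate 3 (log2 fold change 0.66, limma adjusted p = 0.123). IFIT5 was separate but lower in MOLM-13, at 142, 159 and 174 against 104 and 116 (-0.52, adjusted p = 0.305 in limma). In MOLM-13 the IFIT1 and IFIT3 log2 fold changes were 0.62 and 0.52, with wide controls of 21, 27 and 67 for IFIT1 and 34, 73 and 102 for IFIT3.

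Of the enzymes that act on RNA, OAS3 was called and the others were not. The OAS enzymes make oligoadenylates that activate RNase L, EIF2AK2 encodes the kinase PKR that stops translation, and ADAR edits adenosine in double-stranded RNA. OAS3 (chr12:113375856-113414265, forward) read 257 and 346 in the U937 pLKO libraries and 758 and 665 with shRNF5. Both knockdown values were above both controls, with a log2 fold change of 1.25 ± 0.29 (limma adjusted p = 0.0373). Its neighbours on chromosome 12 were not called in U937, where OAS1 read 68 and 44 against 46 and 82 and OAS2 read 37 and 51 against 58 and 72. In HL-60 the OAS3 log2 fold change was -0.01, from 559, 710 and 685 with pLKO to 712, 693 and 540 with shRNF5.

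In MOLM-13 the OAS genes had positive fold changes with large errors, since the pLKO libraries spread widely. OAS1 read 19, 74 and 184 with pLKO and 111 and 155 with shRNF5, and OAS3 read 32, 95 and 164 against 118 and 163. The knockdown values lay inside the control range for both genes (1.02 ± 0.78 and 0.79 ± 0.60, SE). In the same order of lines (MOLM-13, U937, HL-60), EIF2AK2 gave 0.15, 0.46 and -0.25 on the log2 scale and ADAR gave 0.20, 0.32 and -0.26. ADAR values did not overlap between groups in any line, being higher with shRNF5 in MOLM-13 and U937 and lower in HL-60, yet each difference was below the fold threshold. OAS2 was listed at 0 in HL-60.

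The ISG15 system held HERC5 (chr4:89378270-89427314, forward), the main ligase that attaches ISG15 to proteins, and it too was called in opposite directions. In U937 HERC5 read 1617 and 949 with pLKO and 702 and 614 with shRNF5, a log2 fold change of -0.91 ± 0.30 (limma adjusted p = 0.0864). In HL-60 the values were tight within groups, at 810, 791 and 827 with pLKO and 1189, 1242 and 1227 with shRNF5. No values overlapped in either line, and the HL-60 log2 fold change was 0.59 ± 0.11 (adjusted p = 0.00654, limma). The neighbouring gene HERC6, a relative of HERC5, rose in HL-60 from 252, 220 and 228 to 382, 376 and 302 (0.59 ± 0.16, limma adjusted p = 0.0259). In U937 HERC6 read 54 and 47 against 90 and 59, a log2 fold change of 0.52 that was not called, so the neighbours had opposite signs in that line.

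ISG15 itself, which is both conjugated to proteins and secreted, was not called. It read 251 and 284 with pLKO and 214 and 166 with shRNF5 in U937, 251, 203 and 167 against 115 and 156 in MOLM-13, and 128, 169 and 167 against 121, 195 and 165 in HL-60. The groups were separate and lower with shRNF5 in U937 and MOLM-13 and overlapped in HL-60. USP18, the protease that removes ISG15 and restrains the interferon receptor, had log2 fold changes of -0.10 (MOLM-13), -0.48 (U937) and 0.65 (HL-60, limma adjusted p = 0.111).

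PARP9 and DTX3L encode a complex of an ADP-ribosyltransferase family member and a ubiquitin ligase, and their annotated gene bodies overlap at their starts on opposite strands of chromosome 3 (PARP9 chr3:122246771-122283424 and DTX3L chr3:122283185-122294050). Reads from the overlap could be assigned to either gene where counting ignored strand. DTX3L rose in HL-60, at 496, 588 and 648 with pLKO and 847, 721 and 738 with shRNF5, without overlap and close to the fold threshold (0.42 ± 0.14, limma adjusted p = 0.0622). This call was lost without pLKO replicate 1, shRNF5 replicate 1 or shRNF5 replicate 3 (limma adjusted p from 0.113 to 0.227). PARP9 read 145, 207 and 155 against 194, 205 and 170 there and was not called. Both genes had positive log2 fold changes in all 3 lines, between 0.18 and 0.51.

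Among the membrane restriction factors, PLSCR1 rose in U937 and IFITM2 fell in HL-60. PLSCR1 (chr3:146232967-146262643, reverse), a phospholipid scramblase, read 147 and 167 with pLKO and 334 and 347 with shRNF5 in U937. Replicates lay close together and the groups were far apart (1.11 ± 0.32, limma adjusted p = 0.0635). In HL-60 PLSCR1 read 495, 485 and 591 against 643, 589 and 626, overlapping by a small margin, and in MOLM-13 its log2 fold change was -0.08.

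IFITM2 and IFITM3 encode small membrane proteins that hinder fusion of viruses in endosomes, and they are close paralogs of IFITM1, so reads may have been split between them and their values are uncertain. IFITM2 in HL-60 read 446, 1002 and 638 with pLKO and 284, 518 and 309 with shRNF5. The groups overlapped, since shRNF5 replicate 2 lay above pLKO replicate 1, and the log2 fold change was -0.88 ± 0.29 (limma adjusted p = 0.0556). It was lost without pLKO replicate 2 or 3 or shRNF5 replicate 1 or 3 (limma adjusted p from 0.13 to 0.173). IFITM3 read 21, 82 and 47 against 16, 35 and 36 in the same libraries and was not called. BST2, or tetherin, holds budding virus particles at the cell surface. It was separate and lower in MOLM-13, at 2318, 1474 and 1552 against 980 and 1109, a log2 fold change of -0.74 ± 0.21 with the lowest adjusted p of the set in that line (0.162, limma). In HL-60 BST2 overlapped between groups, at 105, 209 and 131 with pLKO and 185, 248 and 223 with shRNF5 (0.61, limma adjusted p = 0.108).

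The dynamin-like GTPase MX1, which blocks replication of influenza and other viruses, had low values and was called in no line. It read 36, 30 and 54 with pLKO and 17 and 16 with shRNF5 in MOLM-13, 59 and 66 against 23 and 24 in U937, and 28, 34 and 25 against 45, 39 and 54 in HL-60. The groups were separate in all 3 lines, lower with shRNF5 in MOLM-13 and U937 and higher in HL-60. The log2 fold changes were -1.19 ± 0.42, -1.37 ± 0.53 and 0.65 ± 0.27 (SE), with limma adjusted p of 0.23, 0.127 and 0.119. MX2, a related protein known for blocking HIV, read 1839 and 1721 against 1938 and 2216 in U937 and gave 0.22 there. In MOLM-13 MX2 read 47, 98 and 113 against 26 and 49, a log2 fold change of -1.15 ± 0.47 that was not called.

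The effectors of nucleotide metabolism were called in no line when each line was fitted alone. SAMHD1, which degrades deoxynucleotides, had log2 fold changes of 0.04, -0.09 and 0.32 in MOLM-13, U937 and HL-60. CMPK2 and RSAD2 are neighbours with overlapping annotation on chromosome 2 and encode a mitochondrial nucleotide kinase and the radical SAM enzyme viperin. CMPK2 read 81 and 80 against 195 and 104 in U937 (0.82, limma adjusted p = 0.255), while RSAD2 read 47 and 46 against 23 and 29 (-0.82, limma adjusted p = 0.352). The neighbours had opposite signs in U937 and neither passed in that fit, and RSAD2 was listed at 0 in HL-60. A joint fit of all libraries, described below, called CMPK2 higher in U937 (0.82 ± 0.28, limma adjusted p = 0.0438).

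The remaining members held the largest rise of the set. LGALS3BP (chr17:76967320-76976029, reverse), a secreted glycoprotein that binds galectins, read 69, 166 and 140 with pLKO and 507, 852 and 989 with shRNF5 in HL-60. Each knockdown value was above every control, a log2 fold change of 2.67 ± 0.32 (limma adjusted p = 0.00125), 6.38-fold on the fitted scale. In MOLM-13 it read 23, 19 and 49 against 33 and 87, overlapping (0.92, not called), and in U937 it was listed at 0. IFI35, a leucine-zipper protein that partners NMI, also rose in HL-60, from 45, 83 and 59 to 166, 114 and 141 (1.19 ± 0.26, limma adjusted p = 0.0121). In MOLM-13 the IFI35 groups were separate in the other direction, at 424, 343 and 333 against 264 and 272 (-0.44, not called).

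IFI6 (chr1:27992575-27998723, reverse), a small hydrophobic membrane protein, was the third member called in opposite directions. In U937 it read 859 and 501 with pLKO and 221 and 193 with shRNF5, separate by a wide margin (-1.66 ± 0.34, limma adjusted p = 0.0252, the lowest of the set in U937). In HL-60 the values overlapped, at 29, 79 and 47 with pLKO and 71, 84 and 133 with shRNF5 (0.94 ± 0.36, limma adjusted p = 0.0907). It missed the threshold without pLKO replicate 1 or 3 or shRNF5 replicate 2 or 3 (limma adjusted p from 0.129 to 0.295). In MOLM-13 IFI6 read 17, 30 and 44 against 16 and 33, where neither group stood apart.

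SAMD9 and SAMD9L are neighbouring growth-restraining genes on chromosome 7, and SAMD9 (chr7:92728826-92747336, reverse) rose in U937. Its values were 299 and 332 with pLKO and 879 and 743 with shRNF5 (1.36 ± 0.28, limma adjusted p = 0.0262). In HL-60 SAMD9 was lower and separate, at 1107, 1108 and 1250 against 1083, 923 and 720, but was not called (-0.36, limma adjusted p = 0.123). SAMD9L read 65 and 45 against 76 and 86 in U937 and was not called. TRIM22, a ubiquitin ligase with antiviral activity, fell in U937 from 588 and 514 to 205 and 360 (-1.01 ± 0.34, limma adjusted p = 0.0891). XAF1, an antagonist of the apoptosis inhibitor XIAP, read 276 and 179 against 81 and 144 in U937, separate and lower but not called (-1.03, limma adjusted p = 0.143). IFI44 was above 0 in MOLM-13 alone and read 25, 12 and 18 against 29 and 56 (1.15 ± 0.50, limma adjusted p = 0.294), the highest fold change of the set there.

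**Figure D2:**
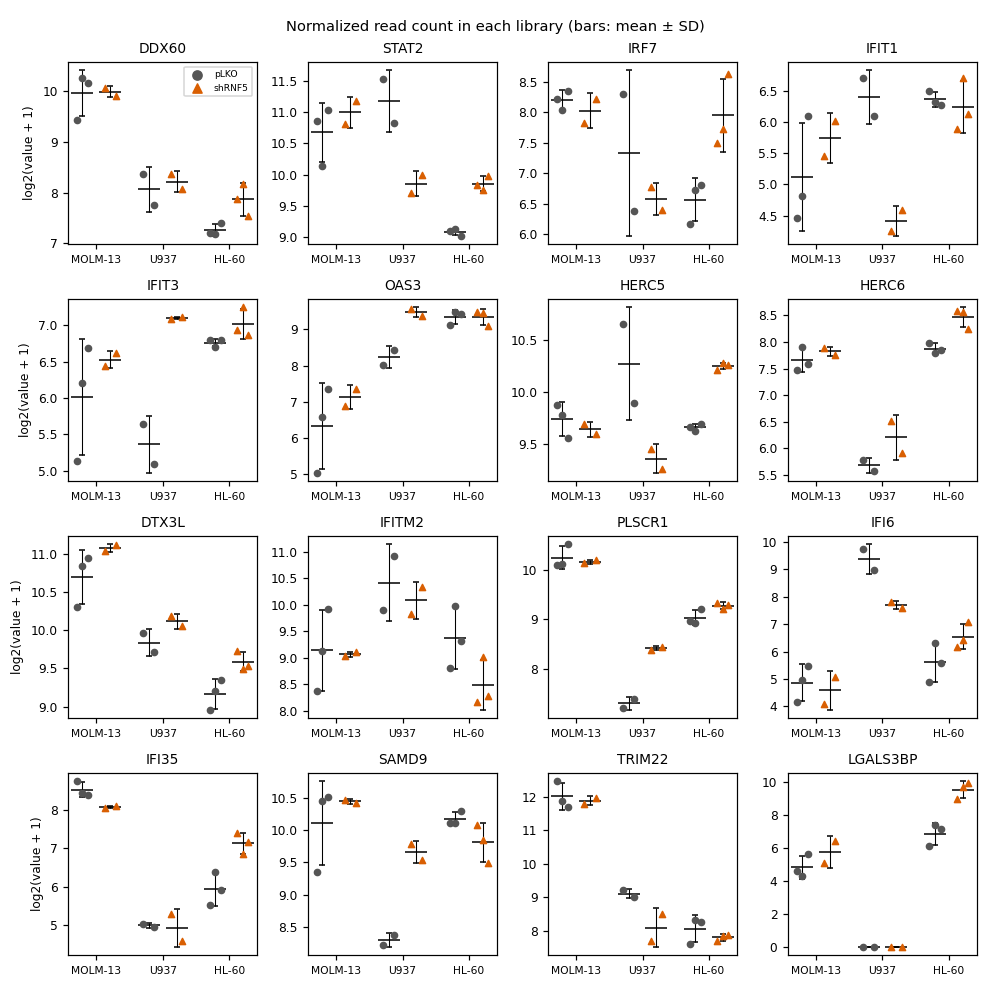
Log2(normalized read count + 1) in each library (y axis) by line (x axis) for the 16 members called in at least 1 line, with grey circles for pLKO, orange triangles for shRNF5, and horizontal bars with error bars for mean ± SD. STAT2, HERC5 and IFI6 go down with shRNF5 in U937 and up in HL-60, and LGALS3BP is listed at 0 in U937. Levels are comparable within a line only.

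Whether the responses differed between lines was tested for the 33 members above 0 in all 3 lines, in a joint limma fit of 15 libraries over 11072 genes. U937 and HL-60 differed for 15 of 33 members (45.5%), beside 37.2% of all genes, and the U937 fold change was the lower in 10 of these 15 and the higher in 5. The difference (U937 minus HL-60) was -2.09 ± 0.34 for STAT2 (limma adjusted p = 0.00104), -1.51 ± 0.27 for HERC5 (0.00156) and -2.61 ± 0.66 for IFI6 (0.00959). These were the 3 members called in both lines, and all 3 were called in opposite directions. How often opposite calls occurred among all genes called in both lines was not computed, so whether this is particular to the set is not known. Without U937 shRNF5 replicate 1, 8 members differed, the lowest number when any library was left out.

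Differences in the same direction, with the U937 response below that of HL-60, were found for IRF7 (-2.13), MX1 (-2.02), IFIT1 (-1.85), IFI35 (-1.25), USP18 (-1.13), BST2 (-0.95) and XAF1 (-0.89). The response in U937 was the higher for SAMD9 (1.72), IFIT3 (1.48), PLSCR1 (0.87), EIF2AK2 (0.71) and ADAR (0.59). MX1, USP18, BST2, XAF1, EIF2AK2 and ADAR were not called when U937 and HL-60 were each fitted alone. The joint limma fit also called MX1 (-1.37, adjusted p = 0.0138) and XAF1 (-1.03, adjusted p = 0.0192) lower in U937 and BST2 higher in HL-60 (0.61, adjusted p = 0.0978). Myeloid marker sums moved in opposite directions in these lines, as given above, and their part in these differences was not tested.

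MOLM-13 and U937 differed for 5 of 33 members (15.2%, beside 15.4% of all genes). The MOLM-13 response was the higher for STAT2 (1.64 ± 0.36), IFIT1 (2.60 ± 0.63) and HERC5 (0.82 ± 0.28) and the lower for PLSCR1 (-1.19 ± 0.25) and CMPK2 (-1.08 ± 0.38). MOLM-13 and HL-60 differed for BST2 (-1.35 ± 0.36), MX1 (-1.83 ± 0.45) and IFI35 (-1.63 ± 0.40), 3 of 33 members (9.09%, beside 8.82%), with the MOLM-13 response the lower each time. In both of these comparisons the share was close to that of all genes. For MOLM-13 against U937, 9 members differed without MOLM-13 pLKO replicate 1 or U937 pLKO replicate 3, 1 without MOLM-13 shRNF5 replicate 2 or U937 shRNF5 replicate 1, 2 without U937 pLKO replicate 2, and 3 without MOLM-13 pLKO replicate 2, MOLM-13 shRNF5 replicate 1, HL-60 pLKO replicate 1 or HL-60 pLKO replicate 3. For MOLM-13 against HL-60, 0 differed without either MOLM-13 shRNF5 library or HL-60 shRNF5 replicate 3, 1 without HL-60 pLKO replicate 1, and 5 without MOLM-13 pLKO replicate 3 or either U937 pLKO library. Altogether 16 members differed in at least 1 pair of lines and 17 in none, and the comparisons share the libraries of each line. The share of all genes differing in at least 1 pair was not computed.

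**Figure D3:**
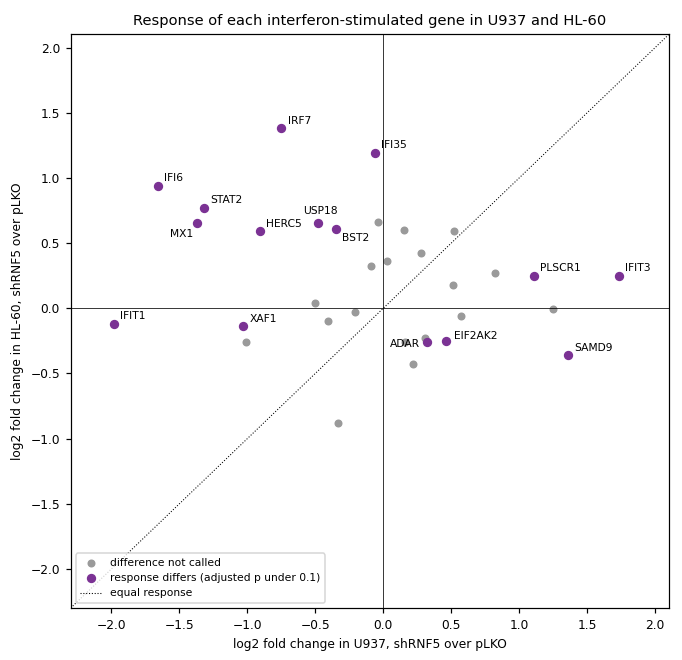
Log2 fold change (shRNF5 over pLKO) in U937 (x axis) against HL-60 (y axis) for the 33 members tested in all 3 lines, with the dotted line at equal response. Purple points are the 15 members whose responses differed, 10 above the line, among them STAT2, HERC5 and IFI6 at the upper left, and 5 below it, and grey points are the other members.

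The control libraries of the set varied more than those of the median gene. The median range of log2 values over the pLKO libraries was 0.75 for the members and 0.47 for all genes in MOLM-13, 0.49 and 0.40 in U937, and 0.40 and 0.34 in HL-60. The members also had lower median levels than all genes within each line (log2 8.34 and 9.58, 7.68 and 9.02, and 7.48 and 8.90), and the part of level in this spread was not tested. A given pLKO library held the lowest value for many members at once. In MOLM-13 pLKO replicate 1 was the lowest control for 20 of 39 members (51.3%, beside 39.9% of all genes), in U937 pLKO replicate 3 for 26 of 36 (72.2%, beside 49.3%), and in HL-60 pLKO replicate 1 for 21 of 35 (60.0%, beside 34.1%).

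The medians over members, relative to the mean of the pLKO libraries, were -0.17, -0.01 and 0.22 with pLKO and 0.04 and 0.16 with shRNF5 in MOLM-13. They were 0.15 and -0.15 with pLKO and 0.01 and -0.05 with shRNF5 in U937. In HL-60 they were -0.20, 0.05 and 0.07 with pLKO and 0.20, 0.33 and 0.13 with shRNF5, so that every HL-60 knockdown library lay above every control, while in the other lines the knockdown libraries lay within the range of the controls. The medians over all genes lay between -0.01 and 0.01 in every library.

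**Figure D4:**
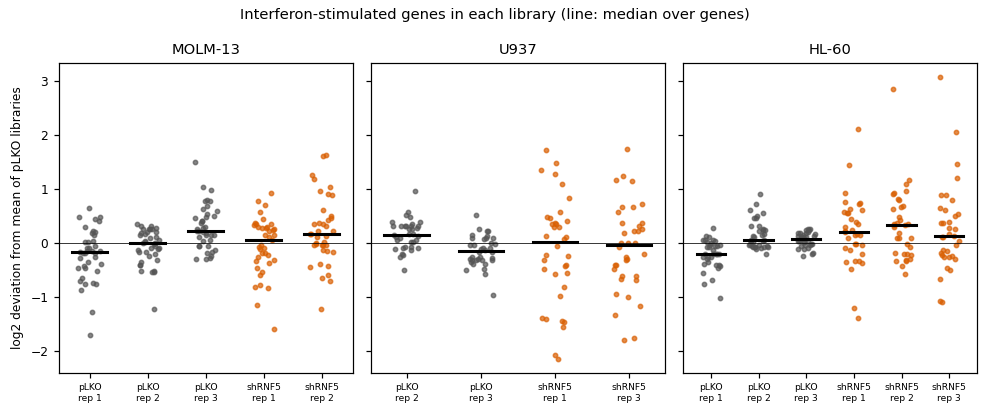
Log2 deviation of each member from the mean of its line's pLKO libraries (y axis) in each library (x axis), 1 point per member, with a black bar at the median. The shRNF5 medians lie above all pLKO medians in HL-60 (0.13 to 0.33 against -0.20 to 0.07) and inside the pLKO range in MOLM-13 and U937.

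Upstream and beside the set, 114 further genes of the interferon pathway were followed. All 21 interferon genes among them were listed at 0 in every library. Of the others, limma called 8 of 82 tested in MOLM-13 (5 higher, 3 lower), 11 of 77 in U937 (7 higher, 4 lower) and 27 of 72 in HL-60 (20 higher, 7 lower), beside the background shares given above. Leaving out a library gave 0 to 14 calls in MOLM-13, 0 without U937 pLKO replicate 2, shRNF5 replicate 1 or shRNF5 replicate 3, and 17 in HL-60 without shRNF5 replicate 3. Among receptors and signalling genes, 7 of 21 tested rose and 0 fell in HL-60. In U937 1 of 23 rose and 3 fell, and in MOLM-13 0 of 23 were called. Among genes of nucleic acid sensing, 5 of 17 tested rose and 3 fell in HL-60. In U937 4 of 17 rose, and in MOLM-13 1 of 18 fell. The shares called over all genes were 25.9% in HL-60, 15.7% in U937 and 2.04% in MOLM-13, and these small lists were not tested against them.

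UBA7, the enzyme that activates ISG15, moved as HERC5 did. It read 1405 and 611 with pLKO and 359 and 507 with shRNF5 in U937, and 181, 348 and 327 against 1043, 613 and 1359 in HL-60, without overlap in either line. The log2 fold changes were -1.12 ± 0.38 and 1.80 ± 0.30 (limma adjusted p = 0.096 and 0.00424), and their difference was -2.91 ± 0.54 (limma adjusted p = 0.00199). UBE2L6, the enzyme that carries ISG15 to its ligase, fell in U937 from 1006 and 1048 to 476 and 583 (-0.96 ± 0.26, limma adjusted p = 0.0542) and was not called in HL-60 (-0.30). IRF3, the factor that starts interferon transcription, also fell in U937 (-0.98 ± 0.25, limma adjusted p = 0.0434) and rose in HL-60 (0.41 ± 0.16, limma adjusted p = 0.0952), though its HL-60 values overlapped at 792, 939 and 789 against 886, 1173 and 1331.

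SOCS1, which inhibits the receptor kinases, rose in HL-60 from 7, 15 and 4 to 38, 52 and 80, a log2 fold change of 2.68 ± 0.46 (limma adjusted p = 0.00473). The groups were separate, at values low enough that the pseudocount bears on the size. MYD88, the adaptor of Toll-like receptors, rose in U937 (0.87 ± 0.24) and HL-60 (1.07 ± 0.14, limma adjusted p = 0.0562 and 0.00157), and its change in MOLM-13 was 0.02. MOV10, an RNA helicase, rose in HL-60 from 98, 106 and 125 to 396, 270 and 462 (1.74 ± 0.22, limma adjusted p = 0.00131) and in MOLM-13 from 1442, 1464 and 1545 to 2559 and 2532 (0.78 ± 0.13, adjusted p = 0.0664). In U937 MOV10 overlapped between groups, at 1348 and 1233 against 1281 and 1473.

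Although no member was called in MOLM-13, other interferon-inducible genes were. CXCL10, a chemokine that attracts T cells, read 51, 73 and 92 with pLKO and 290 and 261 with shRNF5 (1.96 ± 0.30, limma adjusted p = 0.0508), and it was listed at 0 in U937 and HL-60. The immunoproteasome subunits PSMB9 and PSMB8 fell, PSMB9 from 633, 497 and 579 to 262 and 256 (-1.13 ± 0.18, limma adjusted p = 0.0622) and PSMB8 by 0.73 on the log2 scale. MB21D1, which encodes the DNA sensor cGAS, read 2502, 2030 and 2452 against 1248 and 1465 and fell as well (-0.78 ± 0.16, limma adjusted p = 0.0853). The MOLM-13 groups did not overlap for CXCL10, PSMB9 or MB21D1, and the direction of these calls was mixed. GBP5, a guanylate-binding protein, had the largest rise among the pathway genes called there (2.65 ± 0.59, limma adjusted p = 0.0985). ZNFX1 and HELZ2, both helicases, rose by 0.76 each on the log2 scale in MOLM-13, ZNFX1 also in U937 (1.08) and HELZ2 also in HL-60 (0.80).

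The other pathway genes called were called in U937, in HL-60 or in both. In U937, AIM2 (2.03) and IFI16 (0.94), sensors of DNA, rose, as did the kinase IKBKE (1.48) and PIAS1 (0.78), while LY6E fell (-0.81). TRIM14, an adaptor in sensing, rose in U937 (0.94) and fell in HL-60 (-0.65). In HL-60 the receptor subunit IL10RB (0.58), the kinase JAK1 (0.40), the factor IRF5 (1.00) and the inhibitor CISH (0.91) rose. Among its sensing genes, TMEM173, which encodes STING (0.74), DHX58 (0.87), RNASEH2A (0.67) and RNASEH2C (0.45) rose, and TRAF3 (-0.59), TRAF6 (-0.43) and TRIM25 (-0.46) fell. Among its further inducible genes, SLFN5 (1.59), APOL1 (1.51), PARP10 (1.00), GBP3 (0.85), PARP14 (0.49) and NMI (0.44) rose, and the peptide transporter TAP2 (-0.80), the cytokine TNFSF13B (-0.63) and the galectin LGALS9 (-0.45) fell. The values of this paragraph are log2 fold changes from the limma fit of each line.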

How the data were processed

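Values for 15 libraries were grouped by line, construct and replicate number of the sample titles. Per the study's methods, the authors mapped reads to hg19 with STAR, counted them with featureCounts (Subread) and tested them with edgeR through SARTools. That scaling was done within each line was inferred from the values. The deposited value is a score, a normalized read count. It was likewise inferred that the counts of each library were divided by its own factor and rounded. That genes failing a filter are listed at 0 was inferred too, since the study's methods describe no such filter. The tables have 60566 rows for 57820 identifiers, and repeated identifiers hold the same values. No pair of libraries was identical.

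Each line was fitted alone with limma 3.58.1 (R 4.3.3) on log2(value + 1), with a mean-variance trend and Benjamini-Hochberg adjustment over genes with a value above 0 somewhere in that line. Interaction contrasts came from a joint fit with a mean per group. The procedure was tested on simulated data. Depth was inferred from how the rounded values are spaced and limits genes with low values most. Coordinates came from GENCODE annotation on GRCh37, by identifier without version.

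The members, roles and pathway lists were chosen with earlier results of these data known. Named are all members, RNF5, and the other pathway genes called in at least 1 line. Alternatives covered pseudocounts, a filter on low values, rescaling, the trend, a joint fit, a stricter threshold, replicate blocks and leaving out each library. Those for the other pathway genes were added after the data were seen.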

Additional observations from a re-analysis of the deposited data

Results flagged for a closer look

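The members below were picked out because a limma test of the difference between lines passed at an adjusted p under 0.1 in the joint fit. Values are differences of log2 fold changes, the first line minus the second. For U937 against HL-60 they were -2.09 for STAT2, -2.13 for IRF7, -1.85 for IFIT1, 1.48 for IFIT3, 0.71 for EIF2AK2, 0.59 for ADAR, -1.13 for USP18 and -1.51 for HERC5. The same comparison gave -0.95 for BST2, 0.87 for PLSCR1, -2.02 for MX1, -2.61 for IFI6, -1.25 for IFI35, -0.89 for XAF1 and 1.72 for SAMD9. For MOLM-13 against U937 they were 1.64 for STAT2, 2.60 for IFIT1, 0.82 for HERC5, -1.19 for PLSCR1 and -1.08 for CMPK2. For MOLM-13 against HL-60 they were -1.35 for BST2, -1.83 for MX1 and -1.63 for IFI35. No group had a library tested as an outlier, since each held 3 libraries or fewer.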

How the results depend on the processing

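No call of a member, of RNF5 or of a difference between lines changed direction under the alternatives run, and the direction of single other pathway genes was not followed. The U937 calls rest on few libraries. Without pLKO replicate 2, shRNF5 replicate 1 or shRNF5 replicate 3, limma called 0 members and 0 other pathway genes in U937, and the lone library left was assumed to vary like the rest. There RNF5 ranged from -3.98 to -3.30 and missed the threshold without pLKO replicate 2 (-3.83, adjusted p = 0.256) and without shRNF5 replicate 1 (-3.30, adjusted p = 0.292). Members called without a library ranged from 0 to 2 in MOLM-13 (2 without pLKO replicate 1, BST2 and MX2), 0 to 9 in U937 and 7 to 11 in HL-60. The U937 median ranged from -0.15 to 0.24, the latter without pLKO replicate 2. Other pathway genes ranged from 0 to 14, 0 to 16 and 17 to 31. Members differing between lines ranged from 1 to 9 for MOLM-13 against U937, 0 to 5 for MOLM-13 against HL-60 and 8 to 17 for U937 against HL-60. Without a mean-variance trend, 4 members and 2 other pathway genes were called in U937 and 1 other pathway gene in MOLM-13. At an adjusted p under 0.05, 5 members were called in U937, 6 in HL-60 and 3 for MOLM-13 against U937, and 2 other pathway genes in U937 and 0 in MOLM-13. The joint fit called 12 of 33 members and 22 other pathway genes in U937 (beside 36.1% of all genes) and 7 of 33 members in HL-60 (beside 20.7%). Apart from the joint fit, these counts stand without the share of all genes called under the same setting. They describe how stable the calls were and not a trait of the members. The cause of these changes was not tested.

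STAT2, IRF7, HERC5, HERC6, IFI35 and LGALS3BP in HL-60 kept their calls under every alternative, whereas DDX60, DTX3L, IFITM2 and IFI6 lost theirs under 4 to 6 of 13. Of 23 differences between lines, 7 kept their calls throughout: STAT2, HERC5, IFI6, MX1, PLSCR1 and SAMD9 for U937 against HL-60 and PLSCR1 for MOLM-13 against U937. Among members not called, 23 of 495 values in MOLM-13, 11 of 261 in U937 and 9 of 321 in HL-60 changed sign.

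Replicate numbers of the titles did not pair the libraries throughout. In HL-60 the correlations of same-numbered deviations were 0.386, 0.12 and -0.047, and in MOLM-13 they were -0.133 and -0.447. With the numbers of the deposited files, the MOLM-13 correlations were 0.447 and 0.266. Deviations of the 2 MOLM-13 shRNF5 libraries mirror each other, so whether these libraries were paired is not settled. A replicate block called 3 members and 14 other pathway genes in MOLM-13 with the numbers of the titles, and 8 members and 18 other pathway genes with those of the deposited files, which differ. In HL-60 the block called 13 members, and not every library there correlated best with its own number. No paired analysis was possible in U937 because its groups share 1 number. Shares of all genes called with a block are not given here, so the block counts are not a result about the members.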
